A study of Drosophila melanogaster with 16 samples.

Results

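The Cpr genes of Drosophila melanogaster encode cuticle proteins with the Rebers and Riddiford (RR) consensus. All probe sets of the array table that carried a single gene symbol of the form Cpr followed by a number were taken, which gave 67 probe sets for 66 genes among 18769 probe sets that were not controls. Cpr47Ef had 2 probe sets. Of the 67, 17 reached a log2 signal of 4 on at least 2 of 16 arrays, and these were compared across 6 groups.

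The groups were wing imaginal discs and brain complexes of 3rd instar larvae grown on standard medium. The lgl group (lgl27S3/lglE2S31, named lgl-null by the submitters) and the scrib group (scrib1/scrib2) were dissected at day 9 after egg deposition and are labelled as tumours, with 3 arrays per tissue and genotype. Wild-type larvae were dissected at day 5 and are labelled as without tumours, with 2 arrays per tissue. The products of l(2)gl, called lgl here, and scrib are scaffold proteins of epithelial polarity. Against wild type, genotype and age changed together and cannot be told apart. No strain is named for wild type, and no number of animals per array is given.

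Cuticle of insects is chitin bound by structural proteins and secreted by the epidermis and by the epithelia of the trachea and foregut. The RR consensus is a chitin-binding region, and most cuticular proteins of arthropods with a known sequence motif carry it. Different family members are known to be made at different larval, pupal and adult stages under the control of ecdysone pulses. In imaginal discs most of the adult cuticle is laid down only after the larval stage. Which cuticle each Cpr gene named here contributes to was not taken from outside knowledge, so the genes are described by their levels.

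The targeted transcript followed the lgl label: l(2)gl averaged 3.63 in lgl discs against 10.62 in wild-type discs, and 2.41 in lgl brains against 9.41 in wild-type brains. The scrib probe set did not separate its label, at 10.11 in scrib discs against 10.25 in wild-type discs, and 7.63 in scrib brains against 7.67 in wild-type brains. Nothing in the labels states whether scrib1 or scrib2 lowers its transcript, so this level is no check of that label. Across the arrays 40.2% to 43.2% of probe sets lay at or above 4. Wild-type tissues carried their markers: between discs and brains all 9 tested wing disc markers were called higher in discs and all 6 tested neuron markers lower. The pooled SD within a group was 0.33 to 0.45 log2 in the 4 mutant groups, against 0.65 and 0.66 in wild-type discs and brains. The number of arrays limits the precision, and the labels do not say whether replicates came from separate cultures, so p-values measure only a spread between samples that may be technical.

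The 17 probe sets that passed are 25.4% of the 67, against 47.0% of all 18769. By chromosome arm they were 7 of 32 on 3L, 6 of 21 on 2R, 3 of 4 on X, 1 of 5 on 3R and 0 of 5 on 2L. The remaining 50 comprised 43 that stayed below 4 on every array, with a highest value of 3.69, and 7 that reached 4 on a single array. The floor of the deposited values is 2.21, and values below 4 have no measured order. Just inside the limit were Cpr64Ad and Cpr67Fa2, each at 4 or more on 2 arrays, and just outside it were the 7 of a single array. As the filter keeps a gene that is high in 1 group alone, counts over the 17 that passed are given as descriptions only.

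The single-array genes lay almost wholly on 1 wild-type library. On wild-type disc replicate 1, Cpr60D read 8.88 where its next highest array read 3.03. Cpr65Av read 8.61 there, with a next highest of 2.42, and Cpr49Af read 7.22, with a next highest of 2.39. Cpr67B, Cpr65Aw and Cpr72Ea read 6.53, 5.12 and 4.06 on that array and no more than 3.79 elsewhere. Wild-type disc replicate 2 held the other one, Cpr35B, at 4.2. Over all probe sets, 417 reached 4 on exactly 1 array, and 56 of them (13.4%) did so on wild-type disc replicate 1. That array also held the larger summed signal of 4 fat body genes, 51400 against 6460 on wild-type disc replicate 2, and the part of this in the single-array values was not tested.

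**Figure D1:**
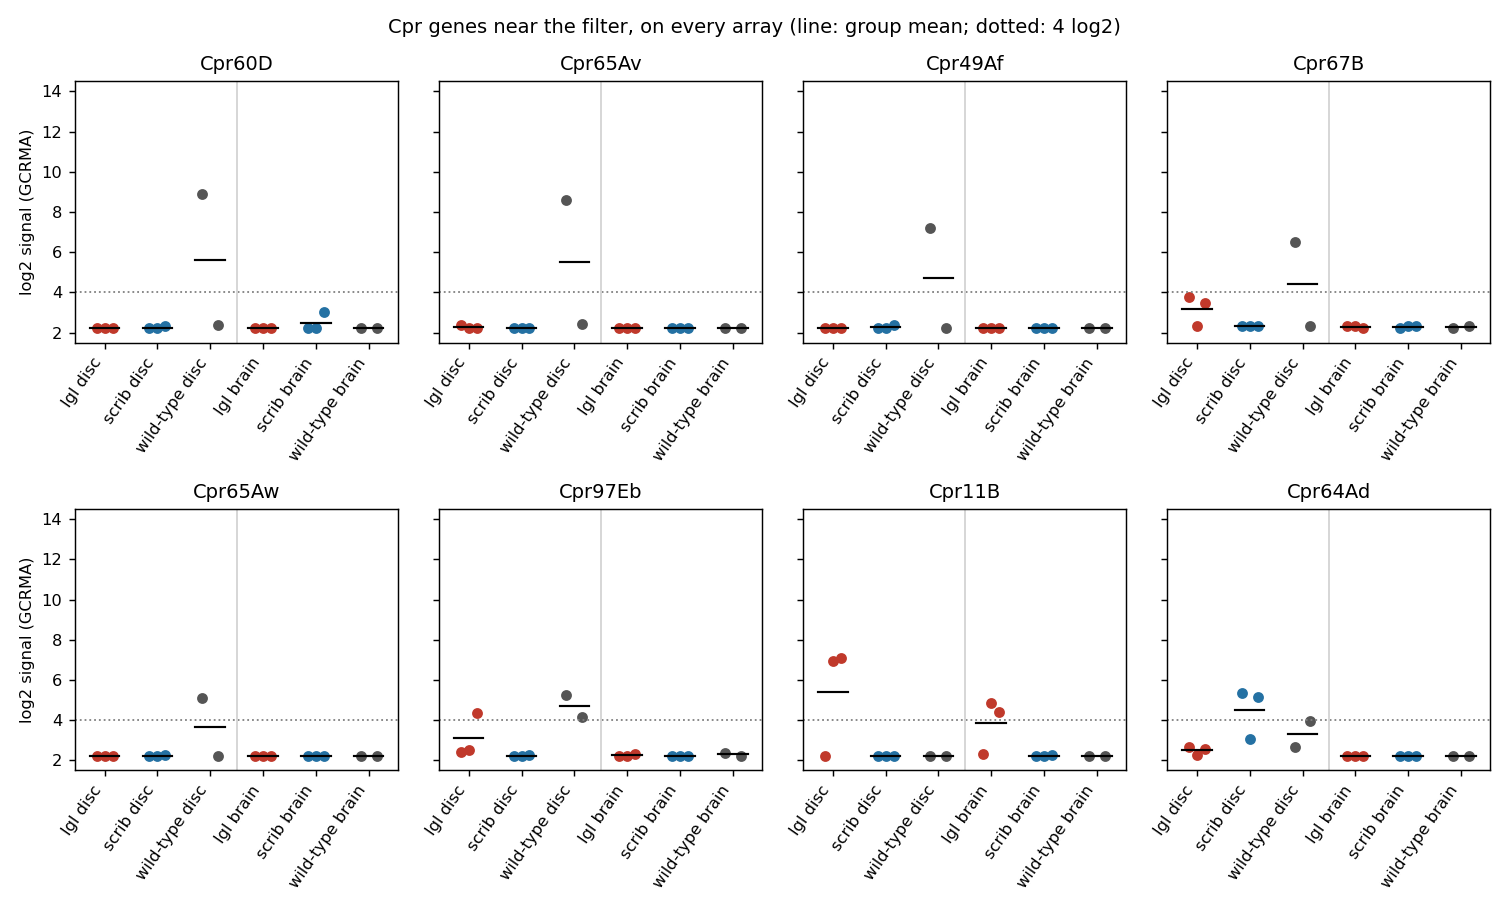
Log2 signal on each array (points, with group means as lines) of 8 Cpr genes near the filter, with lgl, scrib and wild type in each tissue from left to right and a dotted line at 4. Cpr60D, Cpr65Av, Cpr49Af, Cpr67B and Cpr65Aw lie above 4 on wild-type disc replicate 1 alone, while Cpr97Eb, Cpr11B and Cpr64Ad pass on 2 or more arrays.

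Counted per array, 13, 13 and 15 of the 67 lay at or above 4 in lgl discs and 12, 11 and 13 in scrib discs, against 21 and 15 in wild-type discs. In brains the counts were 9, 9 and 10 for lgl and 7, 9 and 8 for scrib, against 3 and 6 for wild type. At or above 4 on every array of a group were 12 in lgl discs, 11 in scrib discs and 14 in wild-type discs, and 8 in lgl brains, 7 in scrib brains and 3 in wild-type brains. Of all probe sets, 39.1% to 42.1% were so per group. Every array means 3 arrays in mutant groups and 2 in wild-type groups, which asks more of the mutants. The 3 in wild-type brains were Cpr49Ac, Cpr51A and Cpr78E. More Cpr genes were thus detected in mutant brains than in wild-type brains, and fewer in mutant discs than in wild-type disc replicate 1.

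**Figure D2:**
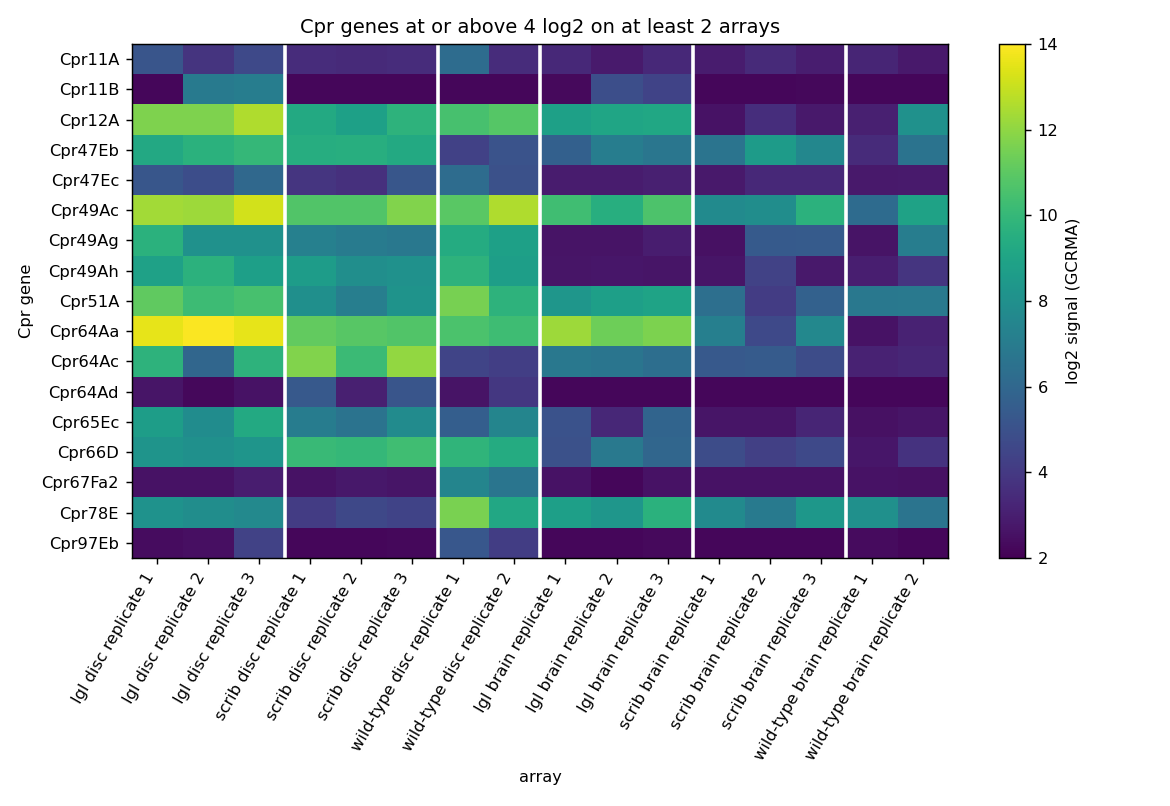
Log2 GCRMA signal (colour) of the 17 Cpr genes that passed the filter (down) on each of the 16 arrays (across), with white lines between groups. Disc arrays are brighter than brain arrays for most of the genes, and Cpr64Aa is bright in lgl discs and lgl brains.

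In wild type most of the 17 were higher in discs than in brains. Of them, 13 were higher in wild-type discs than in wild-type brains and 0 lower (limma, Benjamini-Hochberg adjusted p below 0.05, with 13 at an unadjusted p below 0.05). Of all 8819 probe sets tested, 42.8% were called, 20.5% higher and 22.3% lower. The median difference of the 17 was 3.85 log2, against 0.01 for all tested. Without the filter 14 of the 67 (20.9%) were called, against 19.0% of all probe sets. The 14 include Cpr67Fa1 and Cpr78Cc, which stayed below 4 on every array.

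Cpr64Aa read 10.59 and 10.29 in wild-type discs, against 2.57 and 3.15 in wild-type brains. That is at least 87.0-fold (log2 difference 7.58 ± 0.69 SE, adjusted p = 1.3e-06). Cpr66D read 9.87 and 9.36 in wild-type discs, against 2.72 and 3.75 in brains, at least 49.0-fold higher (6.38 ± 0.47, 2e-07). Where an array of the dimmer group lay below 4 it was set to 4, so such folds are bounds. Parentheses after a fold give the log2 difference with its SE and then the adjusted p of the limma fit, and those after a left-out array give that fit's log2 difference, adjusted p or both.

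Cpr49Ah read 9.75 and 8.74 in wild-type discs, against 3.03 and 3.86 in wild-type brains, at least 37.9-fold higher (5.80 ± 0.53, adjusted p = 1.4e-06). Cpr67Fa2 read 7.48 and 6.68 in wild-type discs, against 2.60 and 2.56 in brains, at least 8.45-fold higher (4.50 ± 0.23, 1.2e-08). Neither gene's disc and brain arrays overlapped.

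The brain replicates disagreed for another pair of genes. Cpr12A read 10.51 and 10.82 in wild-type discs, against 3.04 and 8.07 in brains (log2 difference 5.11 ± 1.07, adjusted p = 0.0017). Cpr49Ag read 9.38 and 8.82 in wild-type discs, against 2.62 and 7.09 in brains (4.25 ± 1.19, 0.011). In both, brain replicate 2 was the high one. The difference of Cpr12A was 2.59 when wild-type brain replicate 1 was left out and 7.62 when replicate 2 was, both still called.

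The other 7 called genes were Cpr49Ac, Cpr65Ec, Cpr51A, Cpr78E, Cpr47Ec, Cpr97Eb and Cpr11A, with differences of 1.85 to 4.20 log2. Cpr64Ac, Cpr64Ad, Cpr11B and Cpr47Eb were not called. The calls of Cpr49Ag and Cpr11A were lost when wild-type brain replicate 1 was left out (2.02 with an adjusted p of 0.14, and 2.05 with 0.066) or when disc replicate 1 was (3.97 with 0.054, and 0.49 with 0.41). Cpr11A was also lost without wild-type brain replicate 2 (1.65, 0.12). Cpr11A was at 3.21 without wild-type disc replicate 2. Leaving out a wild-type array moved the differences of Cpr49Ac (2.85 to 5.55), Cpr65Ec (2.97 to 4.83), Cpr51A (2.96 to 4.74), Cpr78E (1.88 to 4.28) and Cpr47Ec (2.11 to 3.37) with the call kept.

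Cpr49Ac read 12.34, 12.24 and 13.16 in lgl discs and 10.74, 10.74 and 11.71 in scrib discs, against 10.93 and 12.59 in wild-type discs. In brains it read 10.31, 9.52 and 10.66 in lgl and 7.76, 7.86 and 9.72 in scrib, against 6.21 and 8.90 in wild type. Both mutant disc groups overlapped the wild-type discs, and neither disc difference was called.

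In lgl discs 3 of the 17 were higher than in wild-type discs, 4 were lower and 10 were not called, whereas 18.1% of all tested probe sets were called, 12.0% higher and 6.13% lower. The rises were large for Cpr47Eb, Cpr64Ac and Cpr64Aa, and Cpr67Fa2 was below 4 on all lgl disc arrays. The median change of the 17 was -0.14 log2, against 0.01 for all tested. Over the family without the filter, 6 of 67 (8.96%) were called, beside 7.04% of all probe sets, so the share was near the background. The 6 include Cpr67Fa1 and Cpr78Cc, which stayed below 4 on every array.

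Cpr47Eb read 9.22, 9.65 and 9.98 in lgl discs, against 4.32 and 5.07 in wild-type discs. It rose 30.3-fold (log2 change 4.92 ± 0.75, adjusted p = 0.00058). Cpr64Aa read 13.57, 13.92 and 13.54 in lgl discs, against 10.59 and 10.29 in wild-type discs, and rose 9.4-fold (3.23 ± 0.63, 0.0031). Neither group overlapped the other for these genes.

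Cpr64Ac varied within the lgl group. It read 9.76, 5.94 and 9.77 in lgl discs, against 4.46 and 4.22 in wild-type discs, which gave a 17.8-fold rise (4.15 ± 0.90, adjusted p = 0.0061). Replicate 2 was the low array, and without it the change was 5.43 (1.7e-05), while without replicate 1 or 3 it was 3.52 or 3.51 (both 0.024). The call was lost with arrays weighted by the spread of their group (0.18) and with only the groups compared in the fit (0.14). Cpr65Ec read 8.70, 7.83 and 9.29 in lgl discs, against 5.58 and 7.44 in wild-type discs, and was not called (2.09, 0.055). Calls gained without 1 array were Cpr65Ec (3.02 when wild-type disc replicate 2 was left out and 2.48 when lgl disc replicate 2 was), Cpr11B (4.81 without lgl disc replicate 1) and a fall of Cpr11A (-1.67 without wild-type disc replicate 2).

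Cpr67Fa2 read 2.60, 2.59 and 2.96 in lgl discs, against 7.48 and 6.68 in wild-type discs, at least 8.45-fold lower (log2 change -4.36 ± 0.21, adjusted p = 6e-08). A further probe set, annotated to both Cpr67Fa2 and its neighbour Cpr67Fa1, read 7.06 and 6.17 in wild-type discs and at most 3.06 on every other array. Signal shared between these copies cannot be assigned to either alone.

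Cpr78E, Cpr66D and Cpr97Eb also fell. Cpr78E read 8.12, 7.88 and 7.65 in lgl discs, against 11.59 and 9.20 in wild-type discs, a 5.71-fold fall (-2.51 ± 0.64, adjusted p = 0.016). Cpr66D read 8.23, 8.0 and 8.24 in lgl discs, against 9.87 and 9.36 in wild-type discs, a 2.75-fold fall (-1.46 ± 0.43, 0.032). Cpr97Eb read 2.41, 2.5 and 4.36 in lgl discs, against 5.26 and 4.17 in wild-type discs, at least 1.51-fold lower (-1.62 ± 0.46, 0.027), with lgl disc replicate 3 above wild-type disc replicate 2.

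These 3 calls did not hold in all fits with 1 array left out. Without wild-type disc replicate 1 they were lost, at -1.32 (adjusted p = 0.21) for Cpr78E, -1.20 (0.2) for Cpr66D and -1.08 (0.25) for Cpr97Eb. Without wild-type disc replicate 2 Cpr78E was -3.71 (0.0017). Cpr66D was lost without any 1 lgl disc array (-1.38 to -1.50, 0.063 to 0.088) and Cpr97Eb without replicate 1 or 2 (-1.29, 0.096, and -1.33, 0.098). Without lgl disc replicate 3 it was -2.26 (0.00014). With array weights by group Cpr78E, Cpr66D and Cpr97Eb were lost as well (0.052, 0.21 and 0.28).

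In scrib discs 2 of the 17 were higher than in wild-type discs, 4 were lower and 11 were not called, with 23.2% of all tested called, 12.6% higher and 10.6% lower. The comparison uses the same 2 wild-type disc arrays as the lgl comparison. The median change of the 17 was -1.03 log2, against 0.00 for all tested. Without the filter 8 of 67 (11.9%) were called, beside 9.19% of all probe sets, and the 8 again include Cpr67Fa1 and Cpr78Cc.

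Cpr64Ac read 11.74, 10.20 and 12.04 in scrib discs, against 4.46 and 4.22 in wild-type discs. The change was 127-fold (log2 6.99 ± 0.90, adjusted p = 0.00018), and all scrib arrays lay above all lgl disc arrays. Cpr47Eb read 9.46, 9.52 and 9.27 in scrib discs, against 4.32 and 5.07 in wild-type discs, a 26.4-fold rise (4.72 ± 0.75, 0.00079).

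The fall of Cpr78E was 64.5-fold. It read 4.12, 4.61 and 4.43 in scrib discs, against 11.59 and 9.20 in wild-type discs (-6.01 ± 0.64, adjusted p = 3.9e-05), and after quantile normalization the change was -5.35. Cpr51A read 7.97, 7.13 and 8.17 in scrib discs, against 11.56 and 9.78 in wild-type discs, a 7.52-fold fall (-2.91 ± 0.61, 0.0047), lost with array weights by group (0.051) and with only the groups compared (0.065). Without wild-type disc replicate 1 Cpr51A was at -2.02 (0.056, not called), and with replicate 2 left out it was at -3.80 (0.0026), and Cpr78E was at -4.82 and -7.21 without replicate 1 and 2, still called.

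Cpr67Fa2 and Cpr97Eb were below 4 on every scrib disc array. Cpr67Fa2 read 2.57, 2.79 and 2.68 in scrib discs, against 7.48 and 6.68 in wild-type discs, at least 8.45-fold lower (-4.40 ± 0.21, adjusted p = 3.8e-08). Cpr97Eb read 2.21, 2.21 and 2.25 in scrib discs, against 5.26 and 4.17 in wild-type discs, at least 1.64-fold lower (-2.5 ± 0.46, 0.0021). Their disc groups did not overlap. Without wild-type disc replicate 2 Cpr11A (-2.74) and Cpr47Ec (-1.99) were called lower too, as was Cpr47Ec without scrib disc replicate 3 (-1.85), and without scrib disc replicate 2 Cpr64Ad was called higher (1.97).

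**Figure D3:**
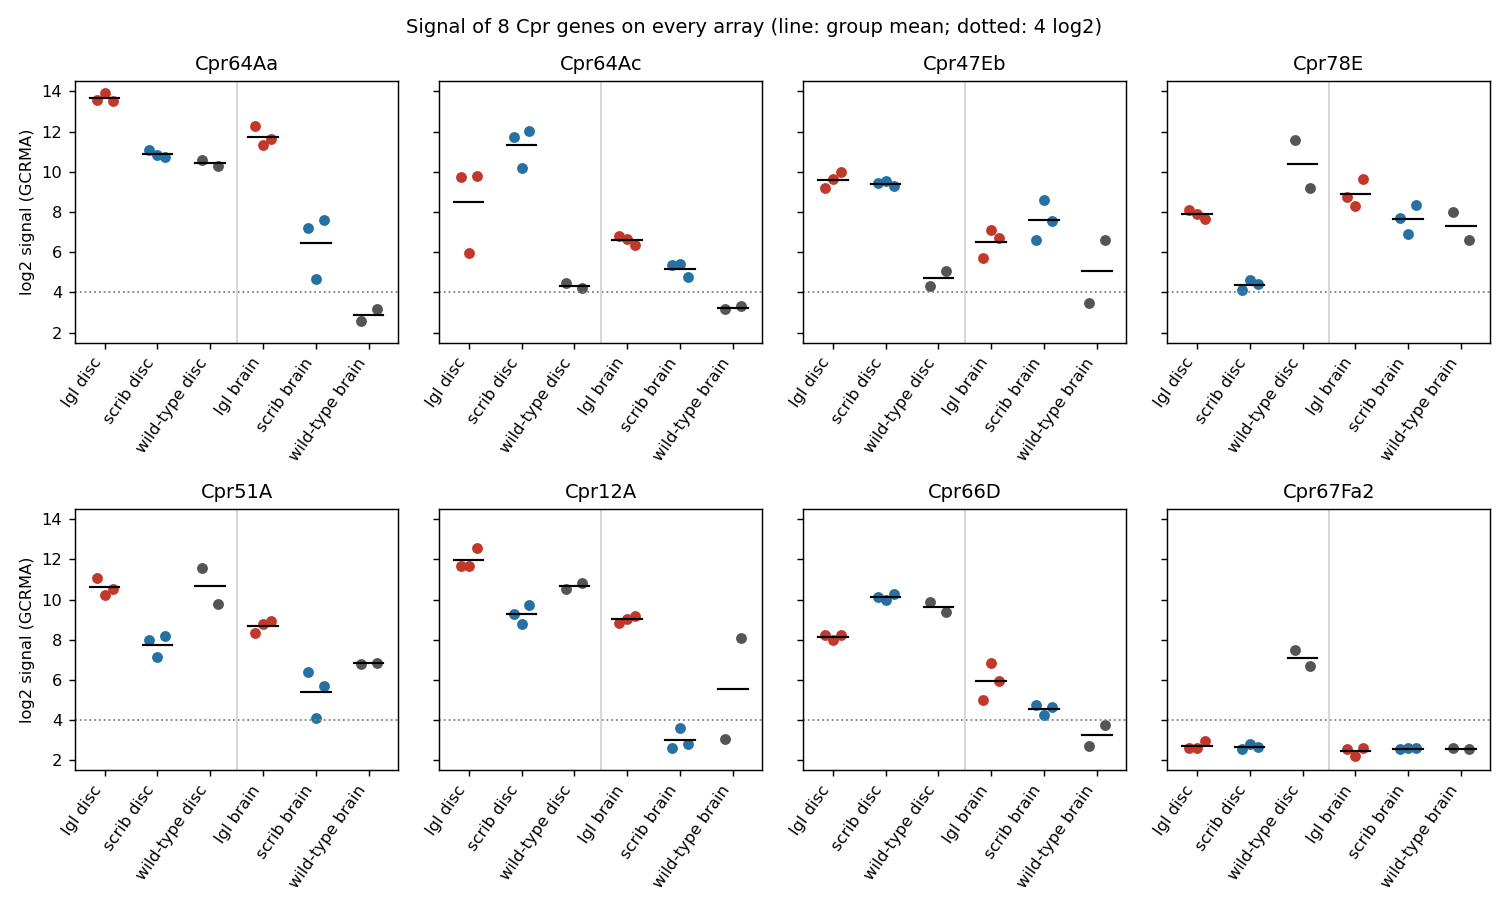
Log2 signal on each array (points, with group means as lines) of 8 Cpr genes, with lgl, scrib and wild type in each tissue from left to right and a dotted line at 4. Cpr64Aa is high in lgl discs and brains, Cpr64Ac in scrib discs, and Cpr67Fa2 is above 4 in wild-type discs alone.

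Markers of other tissues moved in the same comparisons. The summed linear signal of 4 fat body genes was 792 to 1460 in lgl discs and 550 to 769 in scrib discs, against 51400 and 6460 in wild-type discs, and that of 5 salivary gland genes was 26.8 to 37.8 and 30.7 to 325, against 790 and 9570. In lgl discs 3 of 4 tested fat body genes and 3 of 5 salivary gland genes were called lower, and in scrib discs 3 of 4 and 2 of 5. Of 9 tested wing disc genes 4 were lower in lgl discs and 3 in scrib discs. Of all tested probe sets 6.13% and 10.6% were called lower. Of 3 tested muscle genes 2 were lower in both, and their list summed to 85.9 to 117 in lgl discs and 89.7 to 108 in scrib discs, against 1140 and 164 in wild-type discs.

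Other markers were higher in lgl discs than in wild-type discs: 3 of 6 neuron genes, 3 of 5 glia genes, 3 of 5 hemocyte genes and 3 of 6 eye genes, with 0 lower. Among them were Syn, a synaptic protein (log2 change 4.26), moody, a receptor of surface glia (3.74), NimC1, a hemocyte receptor (3.60), and toy, an eye selector gene (5.60). The eye list is not particular to eye here, as toy read 10.16 and 9.24 in wild-type brains, against 4.09 and 2.41 in wild-type discs. Of all tested probe sets 12.0% were called higher in lgl discs. In scrib discs 1 of the 5 glia genes, again moody (3.25), was higher and 1 lower. There 1 neuron gene and 1 eye gene were lower, and 0 hemocyte genes were called (limma, 0 at an unadjusted p below 0.05). The 5 listed gut genes summed to 20000 on scrib disc replicate 2, against 925 and 1660 on the other scrib disc arrays. The part of these markers in the Cpr changes was not tested. In bulk tissue, fewer cells of a type and less RNA per cell cannot be told apart.

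Other cuticle genes measured beside the family in discs were few. Of 4 tested RR cuticle genes with other names, 1 was lower and 0 were higher in each mutant. It was Lcp9, a larval cuticle protein, at 3.15, 2.85 and 2.76 in lgl discs (adjusted p = 0.0012) and 2.71, 2.73 and 7.59 in scrib discs (0.0061), against 8.96 and 9.17 in wild-type discs. All lgl values and 2 of 3 scrib values lay below 4, so the size of the change is not measured. Of 2 tested Tweedle genes, another cuticle protein family, Twdlbeta was lower in both, at 2.21 to 2.40 in lgl discs and 2.25 to 2.63 in scrib discs, against 6.90 and 4.81 in wild-type discs. TwdlE was lower in scrib discs (-3.90, adjusted p = 0.017), but not without wild-type disc replicate 2 (-2.47, 0.17). Of all tested probe sets, 18.1% were called in lgl discs (12.0% higher, 6.13% lower) and 23.2% in scrib discs (12.6% higher, 10.6% lower). Of 26 tested genes for chitin synthesis and assembly, 4 were higher and 2 lower in lgl discs, and 5 and 2 in scrib discs. Both were near those shares. The list also holds chitinases and the Idgf growth factors, and the 4 higher in lgl discs include Idgf2, Idgf3 and Idgf4. Of 10 tested tanning genes, 1 was higher and 4 lower in lgl discs, and 1 and 1 in scrib discs, the latter also near the background. Of 7 tested genes listed for ZP proteins of the apical matrix, 0 were higher and 2 lower in lgl discs, and 0 and 3 in scrib discs. The lower genes in both include trn (-1.1 and -1.21 log2), a leucine-rich repeat protein that is not a ZP protein. Among 15 tested genes listed for ecdysone timing, 6 were lower and 1 higher in lgl discs, and 7 and 1 in scrib discs. The lower genes in both include grh (-0.65 and -1.12 log2), a transcription factor of epidermis and neuroblasts. ImpE2, an ecdysone-inducible gene of imaginal discs, was lower in both, at 2.34, 2.24 and 7.49 in lgl discs (adjusted p = 0.0006) and 2.30, 2.34 and 6.71 in scrib discs (0.00051), against 13.2 and 14.62 in wild-type discs. In each mutant replicate 3 alone lay above 4. ImpL2, an insulin-binding protein, was higher by 2.43 in lgl discs and 4.04 in scrib discs, and by 1.62 and 3.22 without wild-type disc replicate 1.

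Between the mutants at the same age, 5 of the 17 were higher in lgl discs than in scrib discs, 3 were lower and 9 were not called, with 20.5% of all tested called, 11.9% higher and 8.54% lower. The median difference was 1.12 log2, against 0.01 for all tested. Without the filter 5 of 67 (7.46%) were called, beside 7.58% of all probe sets. Cpr78E was 11.3-fold higher in lgl discs (3.50 ± 0.57, adjusted p = 0.00097) and 2.86 (0.0049) after quantile normalization, and lgl and scrib disc arrays did not overlap.

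Cpr51A read 11.08, 10.23 and 10.53 in lgl discs, against 7.97, 7.13 and 8.17 in scrib discs (7.24-fold, 2.86 ± 0.55, adjusted p = 0.0028). Cpr64Aa read 13.57, 13.92 and 13.54 in lgl discs, against 11.11, 10.86 and 10.72 in scrib discs (6.87-fold, 2.78 ± 0.56, 0.004). Cpr12A read 11.68, 11.68 and 12.56 in lgl discs, against 9.28, 8.80 and 9.75 in scrib discs (6.48-fold, 2.70 ± 0.87, 0.046). None of these 3 genes had overlapping disc arrays. Cpr11B reached 4 on lgl arrays alone.

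Cpr11B read 2.21, 6.95 and 7.09 in lgl discs, against 2.21 in all 3 scrib discs, at least 2.66-fold higher (3.21 ± 1.01, adjusted p = 0.041). Cpr12A missed the threshold without any 1 of the 6 arrays (2.40 to 2.93, 0.086 to 0.14). Cpr11B missed it without any 1 of 5 arrays (2.37 to 3.21, 0.088 to 0.17), and without lgl disc replicate 1, at the floor, it was 4.81 (9.3e-05).

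The other 3 called genes ran the other way. Cpr66D read 8.23, 8.0 and 8.24 in lgl discs, against 10.15, 9.99 and 10.30 in scrib discs, 3.98-fold lower (-1.99 ± 0.38, adjusted p = 0.0029). Cpr64Ac was 7.14-fold lower in lgl discs (-2.84 ± 0.81, 0.026). Cpr64Ad read 2.66, 2.26 and 2.58 in lgl discs, against 5.36, 3.04 and 5.17 in scrib discs, at least 1.44-fold lower (-2.02 ± 0.48, 0.011), with scrib replicate 2 below 4.

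Without scrib disc replicate 1 or 3 Cpr64Ac was lost (-2.63, 0.081, and -2.48, 0.11), without lgl disc replicate 2 it was -1.56 (0.031), and without lgl disc replicate 1 or 3 it was -3.47 and -3.48. Cpr64Ad was lost without scrib disc replicate 3 (-1.70, 0.057) and was -2.77 without replicate 2. With only the groups compared in the fit Cpr11B, Cpr64Ac and Cpr64Ad were lost (both 0.12, and 0.062). Cpr47Eb was not called (0.20 ± 0.67 log2, 0.89).

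**Figure D4:**
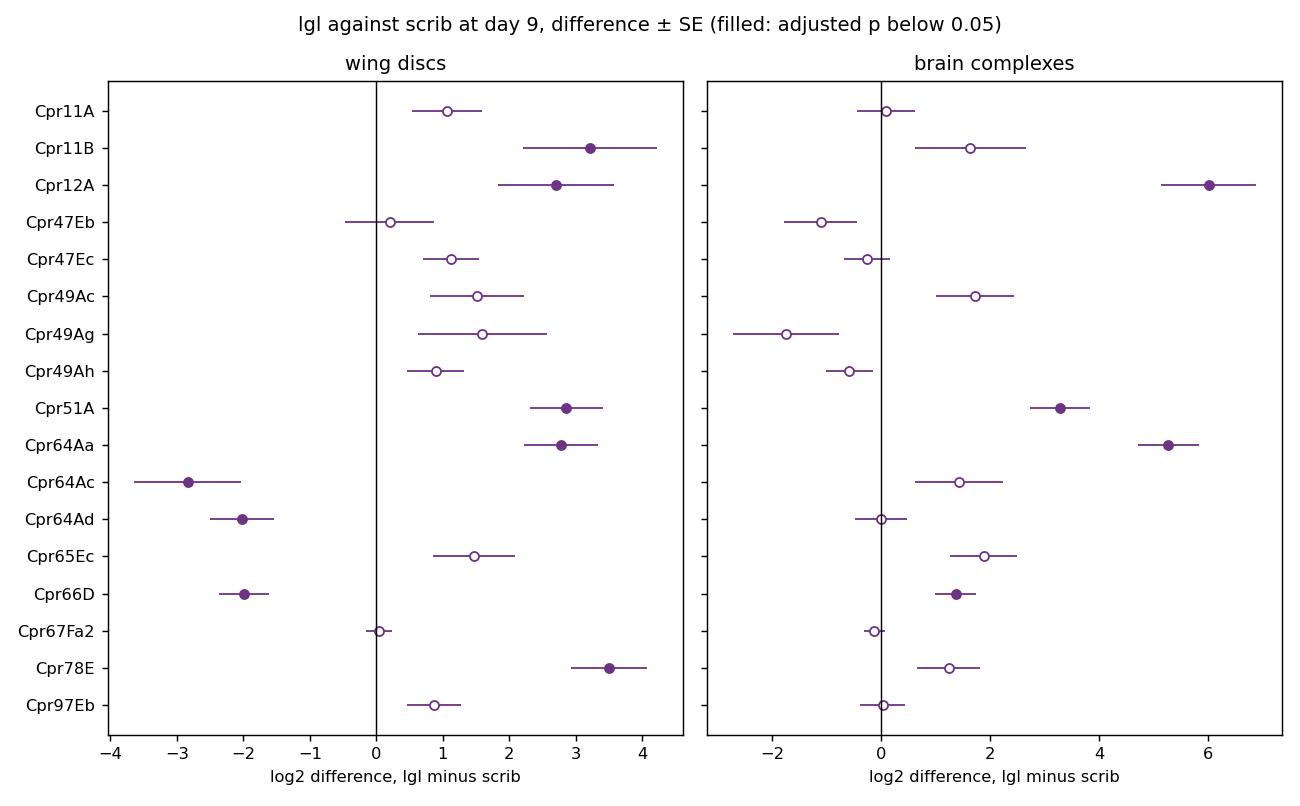
Log2 difference, lgl minus scrib at day 9, for the 17 Cpr genes (down), in wing discs (left) and brain complexes (right); bars are SE and filled points have an adjusted p below 0.05. Cpr64Aa, Cpr51A and Cpr12A lie to the right of 0 in both tissues, and Cpr64Ac and Cpr66D lie to the left in discs.

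Markers of other cells also differed between the mutant discs: 5 of 6 tested neuron genes, 4 of 5 hemocyte genes, 3 of 5 glia genes and 3 of 6 eye genes were higher in lgl discs than in scrib discs and 0 were lower. Of all tested probe sets 11.9% were called higher and 8.54% lower. The summed signal of the hemocyte genes was 691 to 1460 in lgl discs and 130 to 166 in scrib discs. Their part in the Cpr differences was not tested.

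The Cpr64A genes form a run on chromosome arm 3L, Cpr64Aa, Cpr64Ab, Cpr64Ac and Cpr64Ad, with no other protein-coding gene between neighbours in the RefSeq annotation. Cpr64Aa was higher in lgl than scrib discs, Cpr64Ac and Cpr64Ad were lower, and Cpr64Ab stayed below 4, with a highest value of 3.03. In other runs, Cpr67Fa2 passed and Cpr67Fa1 and Cpr67Fb did not, Cpr65Ec passed and Cpr65Ea and Cpr65Eb did not, and Cpr49Ag passed and Cpr49Af did not. For Cpr67Fa2 and Cpr67Fa1 this holds for their own probe sets only, as shared signal cannot be assigned to either copy.

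In lgl brains 7 of the 17 were higher than in wild-type brains and 0 lower (limma, with 8 at an unadjusted p below 0.05), against 25.3% of all tested called, 14.0% higher and 11.3% lower. The median change was 1.59 log2, against 0.04 for all tested. Without the filter 3 of 67 (4.48%) were called, below the 9.39% of all probe sets. The 3 include Cpr5C, which stayed below 4 on every array. Cpr64Aa read 12.26, 11.33 and 11.64 in lgl brains, against 2.57 and 3.15 in wild-type brains, at least 214-fold higher (8.88 ± 0.63, adjusted p = 2.2e-06).

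Cpr66D read 4.98, 6.83 and 5.96 in lgl brains, against 2.72 and 3.75 in wild-type brains, at least 3.8-fold higher (2.69 ± 0.43, adjusted p = 0.00094). It and Cpr64Aa were called when any 1 array was left out, but Cpr66D was lost with array weights by group (0.1) and with only the groups compared (0.079). With array weights by group Cpr64Aa alone of the 7 stayed called. Cpr64Ac read 6.82, 6.67 and 6.35 in lgl brains, against 3.17 and 3.30 in wild-type brains, at least 6.11-fold higher (3.38 ± 0.90, 0.017), and 3.32 (0.09) without wild-type brain replicate 1.

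Cpr12A read 8.83, 9.04 and 9.17 in lgl brains, against 3.04 and 8.07 in wild-type brains, at least 7.86-fold higher (3.45 ± 0.98, adjusted p = 0.022). Cpr49Ac was 6.09-fold higher (2.61 ± 0.79, 0.03). Cpr65Ec read 5.00, 3.35 and 5.88 in lgl brains, against 2.55 and 2.68 in wild-type brains, at least 1.67-fold higher (2.13 ± 0.69, 0.041). The lgl arrays of all 3 lay above the wild-type arrays. Cpr51A read 8.32, 8.78 and 8.94 in lgl brains, against 6.79 and 6.85 in wild-type brains, 3.64-fold higher (1.86 ± 0.61, 0.042).

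Wild-type brain replicate 1 was the lower array for Cpr12A and Cpr49Ac. Without it their changes were 0.94 (adjusted p = 0.19) and 1.26 (0.36), and without replicate 2 they were 5.97 and 3.95, both called. Cpr12A was also lost without lgl brain replicate 2 or 3 (0.055 and 0.053) and Cpr49Ac without lgl brain replicate 1 or 3 (0.077 and 0.082). Cpr51A was lost without any 1 array (1.73 to 2.04, 0.063 to 0.16). Cpr65Ec was lost without any 1 of 4 arrays (1.56 to 2.19, 0.074 to 0.16) and was 2.83 without lgl brain replicate 2. Cpr49Ag was not called (-2.12), but without wild-type brain replicate 1 it was lower (-4.35, 0.012).

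In scrib brains 3 of the 17 were higher than in wild-type brains and 0 lower (limma, with 5 at an unadjusted p below 0.05), against 34.8% of all tested called, 19.7% higher and 15.1% lower, a share no higher than the background. The same wild-type brain arrays served both mutants. The median change was 0.09 log2, against 0.07 for all tested, and without the filter 1 of 67 (1.49%) was called, against 14.0% of all probe sets. Cpr64Aa read 7.18, 4.66 and 7.58 in scrib brains, against 2.57 and 3.15 in wild-type brains, at least 5.55-fold higher (3.61 ± 0.63, adjusted p = 0.00093). Without scrib brain replicate 2 its change was 4.52, and it was lost with array weights by group (0.08) and with only the groups compared (0.076).

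Cpr47Eb read 5.69, 7.09 and 6.69 in lgl brains and was not called there (1.45 ± 0.75, adjusted p = 0.17), though it was without wild-type brain replicate 2 (2.99, 0.0041). It read 6.63, 8.59 and 7.54 in scrib brains, against 3.49 and 6.59 in wild-type brains, at least 4.89-fold higher (2.54 ± 0.75, adjusted p = 0.019). Cpr66D read 4.77, 4.26 and 4.64 in scrib brains, against 2.72 and 3.75 in wild-type brains, at least 1.47-fold higher (1.32 ± 0.43, 0.03). Both were lost without wild-type brain replicate 1, at 1.0 (0.29) and 0.80 (0.27). Cpr47Eb was lost too without scrib brain replicate 2 (2.04, 0.069) and was 4.09 without wild-type brain replicate 2, and Cpr66D was lost without scrib brain replicate 1 or 3 (0.079 and 0.07).

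Another pair of genes was lower in scrib brains under some settings only. Cpr12A read 2.60, 3.58 and 2.82 in scrib brains, against 3.04 and 8.07 in wild-type brains, and was not called (-2.56). Without wild-type brain replicate 1, the low array, its change was -5.07 (adjusted p = 1.9e-05). Cpr51A read 6.37, 4.11 and 5.71 in scrib brains, against 6.79 and 6.85 in wild-type brains, and was not called (-1.42), though no arrays overlapped. It was called lower without scrib brain replicate 1 (-1.91, 0.033) and with a replicate block (-1.54, 0.038). Cpr49Ac was called higher without wild-type brain replicate 2 (2.24, 0.045).

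**Figure D5:**
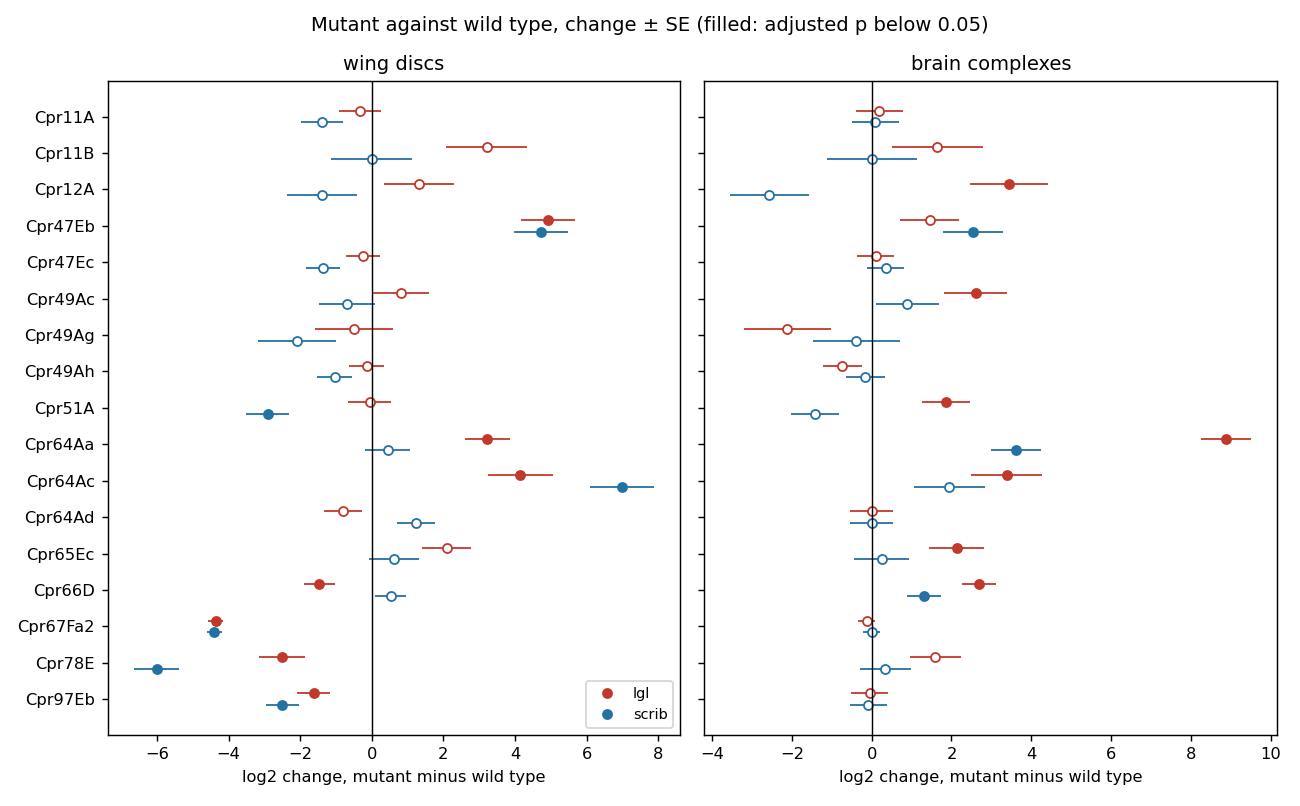
Log2 change, mutant minus wild type, of the 17 Cpr genes (down) in wing discs (left) and brain complexes (right), with lgl in red above scrib in blue, SE as bars and filled points at an adjusted p below 0.05. In brains the filled points lie right of 0 and in discs they lie on both sides.

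Between the mutant brains, 4 of the 17 were higher in lgl and 0 lower (limma, with 7 at an unadjusted p below 0.05), against 11.5% of all tested called, 6.08% higher and 5.42% lower. The median difference was 1.24 log2, against -0.04 for all tested. Without the filter 4 of 67 (5.97%) were called, against 3.76% of all probe sets, and the 4 again include Cpr5C. Cpr12A read 8.83, 9.04 and 9.17 in lgl brains, against 2.60, 3.58 and 2.82 in scrib brains, at least 32.2-fold higher (6.01 ± 0.87, adjusted p = 0.00081). Cpr64Aa was 38.6-fold higher (5.27 ± 0.56, 6.6e-05).

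Cpr51A read 8.32, 8.78 and 8.94 in lgl brains, against 6.37, 4.11 and 5.71 in scrib brains, 9.76-fold higher (3.29 ± 0.55, adjusted p = 0.0021). These 3 genes were higher in lgl discs than in scrib discs as well. Cpr66D was 2.59-fold higher in lgl brains (1.37 ± 0.38, 0.037), the opposite of discs, but was lost without any 1 of 5 arrays (0.92 to 1.48, 0.062 to 0.13). Without scrib brain replicate 2 Cpr51A was 2.64 and Cpr64Aa 4.36, both still called. Cpr65Ec was called higher in lgl brains without lgl brain replicate 2 (2.58, 0.018).

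Of 26 tested genes for chitin synthesis and assembly, 8 were higher, 1 lower and 17 not called in lgl brains (25.3% of all tested called), and 8 were higher, 2 lower and 16 not called in scrib brains (34.8%). Gfat1, an enzyme of the hexosamine route to chitin, was higher by 2.25 ± 0.30 log2 in lgl brains and 1.82 ± 0.30 in scrib brains. serp and verm, chitin deacetylases, were higher in both brain groups, but wild-type brain replicate 1 was far below replicate 2, at 3.97 against 7.06 for serp and 2.86 against 7.79 for verm. Without that array the changes were 2.27 (serp) and 2.09 (verm) in lgl brains and 1.62 and 1.82 in scrib brains. In lgl brains without it kkv was 1.66 (3.37 with it), knk 0.70 (1.40), Gfat2 0.39 (0.57) and Cda4 2.79 (3.49). yellow-b, of the yellow family, at 2.92 on that array and 5.90 on wild-type brain replicate 2, was higher by 1.88 in lgl brains and 1.84 in scrib brains without it. Of RR genes with other names and Tweedle genes tested, 0 of 4 and 0 of 2 were called in either brain comparison (limma, 0 of 4 at an unadjusted p below 0.05 in both, and 1 of 2 and 0 of 2).

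Some of these brain genes are also used in tracheae. Of 5 tested tracheal genes 4 were higher in lgl brains and 2 in scrib brains, with 0 lower, and 4 of the listed genes are shared with the chitin list. Of all tested probe sets 14.0% were called higher in lgl brains and 19.7% in scrib brains. The call of knk in lgl brains (1.40) was lost without lgl brain replicate 2 or 3 (adjusted p = 0.068 and 0.062). Without wild-type brain replicate 1 the change of knk was 0.70. The summed signal of the 8 tracheal genes was 2140 to 3020 in lgl brains and 1030 to 2480 in scrib brains, against 339 and 884 in wild-type brains. btl, a receptor of tracheal cells, was at the floor of 2.21 on all brain arrays, but it also stayed below 4 on 7 of 8 disc arrays. grh, a transcription factor of epidermis and also of neuroblasts, was higher by 2.34 ± 0.20 in lgl brains (adjusted p = 1.1e-05) and by 1.82 ± 0.20 in scrib brains (4.1e-05).

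Of 6 tested neuron genes 4 were called lower in each mutant brain and 0 higher. Of all tested probe sets 11.3% were called lower in lgl brains and 15.1% in scrib brains. The neuron list summed to 4240 to 6200 in lgl brains and 3070 to 4130 in scrib brains, against 8750 and 10800 in wild-type brains. The calls of Gad1 and brp in lgl brains were lost without any 1 lgl array (adjusted p = 0.072 to 0.1, and 0.062 to 0.12). Without wild-type brain replicate 1 Gad1 was -1.13, Syn -0.98 and brp -1.90. Without replicate 2 brp was -0.32. Of 5 tested hemocyte genes 2 were called higher in lgl brains and 1 in scrib brains, with 0 lower. Of all tested probe sets 14.0% and 19.7% were called higher, so the scrib count was near the background. The call of Pxn in lgl brains was lost without lgl brain replicate 1 or 2 (adjusted p = 0.066 and 0.085). Without wild-type brain replicate 1 its change was 0.83. Glia genes were 1 higher and 2 lower of 5 in lgl brains, and 0 and 1 in scrib brains. Of 2 tested gut genes Drip, a water channel, was higher by 3.72 in lgl brains and by 1.87 in scrib brains, where the call was lost without wild-type brain replicate 1 (1.59, 0.1). The 5 listed gut genes summed to 5080 on scrib brain replicate 3, against 29.7 and 125 on the other scrib brain arrays. For these markers and the tracheal genes, their part in the Cpr changes was not tested.

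Whether a mutant's effect differed between tissues was tested directly as disc change minus brain change, with wild-type arrays of each tissue as its own base. For lgl the disc change lay above the brain change for 1 of the 17 and below it for 4, against 13.5% of all tested called, 8.97% above and 4.5% below. For scrib it was also 1 and 4, against 11.3% called, 6.33% above and 4.97% below. The genes below it include Cpr67Fa2 in both mutants and Cpr97Eb in scrib, which were below 4 on every brain array, so for them the difference is that of the discs alone. Without the filter 4 and 2 of 67 were called (5.97% and 2.99%, against 4.88% and 4.29%).

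For Cpr78E the scrib change was -6.01 log2 in discs and 0.34 in brains, and the lgl change was -2.51 and 1.59. It read 8.76, 8.30 and 9.65 in lgl brains and 7.72, 6.92 and 8.34 in scrib brains, against 8.01 and 6.63 in wild-type brains. The scrib disc level of 4.12 to 4.61 was below that of every brain array. For Cpr66D the lgl change was -1.46 in discs and 2.69 in brains, opposite in sign. For Cpr64Ac the scrib change was 6.99 in discs and 1.95 in brains.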

How the data were processed

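RNA from dissected larval tissue was converted to biotin-labelled cRNA and read on single-colour Affymetrix arrays. Per the labels, the authors processed the scans with GCRMA, and the deposited values are on a log2 scale with background correction and normalization across arrays. The GCRMA version and the build behind the array are not given in the sources used here. Controls (183 of 18952 probe sets) were dropped. Symbols came from the platform annotation, and chromosome arms and gene order from RefSeq (Release 6 plus ISO1 MT).

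Every probe set with a log2 value of 4 or more on at least 2 arrays entered the fit, 8819 in total. The fit used limma 3.58.1 in R 4.3.3, with 6 group means in 1 model, 10 residual degrees of freedom and Benjamini-Hochberg adjustment within each of 9 contrasts. Folds come from group means, and none is given where both lay below 4. The Cpr members and other lists were chosen with earlier results of these data known. Members are given array by array where they had the largest called changes of each comparison or the highest means. The fit was tested on simulated data. Alternatives were other filters, variance settings and normalization, a replicate block, array weights, subsets of arrays and leaving out each array.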

Additional observations from a re-analysis of the deposited data

Results flagged for a closer look

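The difference between the disc effect and the brain effect of a mutant was tested for each of the 17 Cpr genes (limma, Benjamini-Hochberg adjusted). For lgl it was -5.65 log2 for Cpr64Aa (3.23 in discs, 8.88 in brains), -4.25 for Cpr67Fa2 (-4.36 and -0.12), -4.15 for Cpr66D (-1.46 and 2.69), -4.10 for Cpr78E (-2.51 and 1.59) and 3.48 for Cpr47Eb (4.92 and 1.45). For scrib it was -6.35 for Cpr78E, -4.40 for Cpr67Fa2 (-4.40 and 0.00), -3.16 for Cpr64Aa (0.45 and 3.61), -2.41 for Cpr97Eb (-2.5 and -0.08) and 5.04 for Cpr64Ac (6.99 and 1.95).

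Cpr67Fa2 and Cpr97Eb were below 4 on every brain array, so their brain changes of about 0 are values at or near the floor. Both wild-type brain arrays were also below 4 for Cpr64Aa, Cpr66D and Cpr64Ac, so the sizes of their brain changes, and of the differences, are not fully measured. Each difference was refitted with 1 of its 10 arrays left out at a time. Cpr47Eb in lgl (adjusted p = 0.048) was lost in 9 of these fits, at up to 0.12 without wild-type disc replicate 1 (3.11), and was 5.02 without wild-type brain replicate 1. Cpr64Aa in scrib (0.039) was lost in 8, at up to 0.1 without wild-type brain replicate 1 (-2.87), and was -4.07 without scrib brain replicate 2. Cpr97Eb in scrib (0.032) was lost in 8, at up to 0.099 without wild-type disc replicate 1 (-1.87). Cpr64Ac in scrib (0.024) was lost in 5, at 0.051 to 0.056, without wild-type disc replicate 2, wild-type brain replicate 1, scrib disc replicate 1 or 3, or scrib brain replicate 3. With array weights by group Cpr64Aa, Cpr66D and Cpr78E in lgl were lost (0.079, 0.069 and 0.11). Cpr78E stayed called without any 1 wild-type array, at -2.90 to -5.30 for lgl and -5.16 to -7.55 for scrib.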

How the results depend on the processing

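Counts of called Cpr genes moved by over 1.5 times as follows. With no filter, over all 67, the count was 3 instead of 7 in lgl brains, 1 instead of 3 in scrib brains, 5 instead of 8 between mutant discs and 2 instead of 5 for the tissue difference in scrib. With array weights by group it was 3 instead of 7 in lgl discs, 1 instead of 7 in lgl brains, 0 instead of 3 in scrib brains (limma, 3 at an unadjusted p below 0.05), 5 instead of 13 for wild-type disc against brain, and 1 and 2 instead of 5 for the tissue differences of lgl and scrib. With only the groups compared it was 4 in lgl discs, 3 in lgl brains, 1 in scrib brains and 8 for wild type. Without both wild-type replicate 1 arrays it was 4 in lgl discs and 4 in lgl brains. Leaving out single arrays gave 4 to 9 in lgl discs, 5 to 8 in scrib discs, 3 to 6 in lgl brains, 2 to 4 in scrib brains, 5 to 7 and 3 to 4 between the mutants in discs and brains, 11 to 13 in wild type, and 4 to 6 and 2 to 6 for the tissue differences. A group reduced to 1 wild-type array by this takes its spread from the remaining groups. The cause was not tested beyond the smaller number of arrays or larger number of genes tested that these settings imply. Deviations of same-numbered samples from their group means correlated weakly in most pairs. For lgl disc with scrib disc they correlated at 0.019, 0.061 and 0.007. Other pairs ran from -0.169 to 0.236, except wild-type disc and brain, with only 2 numbers, at 0.434. A replicate block gave 7, 7, 7, 3, 9, 4, 13, 5 and 5 calls in the order of both disc, both brain, both mutant, wild-type and both tissue comparisons, and lost Cpr66D in scrib brains (adjusted p = 0.053) and between mutant brains (0.052). It added a fall of Cpr47Ec (-1.60, 0.016) in scrib discs and of Cpr51A (-1.54, 0.038) in scrib brains, and between the mutants Cpr47Ec in discs (1.12, 0.043) and Cpr65Ec in brains (1.88, 0.039). No called gene changed direction under these settings.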

Other observations

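Cpr11B was at the floor on lgl disc replicate 1 and read 2.31 on lgl brain replicate 1, while it read 4.41 to 7.09 on replicates 2 and 3 of both lgl tissues.

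A probe set assigned to both Obp57d and Cpr57A read 5.70, 5.62 and 5.86 in lgl discs and 4.84, 5.16 and 5.40 in scrib discs, against 6.85 and 4.64 in wild-type discs. It read 3.66 to 4.08 in brains. It was kept out of the 67 because it names 2 genes.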
